A study of Mus musculus with 6 samples.

Results

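The Rab GTPase family was followed in the hippocampus of male Tg2576 mice, with 105 probe sets of 51 genes among the 23262 probe sets tested on Affymetrix MG430 2.0 chips. Tg2576 mice, here on a C57BL/6 background, carry human APP695 with the Swedish mutation under the prion protein promoter, described as neuron-specific, so all 3 groups share the transgene and none is a wild-type control. Mice of Tg-18mo were untreated, 18 months old and had a high load of amyloid-beta plaques. Mice of Tg-18mo-ACEI reached the same age after 6 months of captopril, which inhibits the angiotensin-converting enzyme, given in their drinking water (20 mg/kg a day), and mice of Tg-12mo were untreated, 12 months old and had a low plaque load. Each group had 2 chips, each with RNA pooled from 4 mice, so p-values measure only the spread between pools.

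A Rab probe set was one whose only gene symbol is Rab followed by a number and at most 1 letter. The chip has 132 of them for 59 genes, among 45101 probe sets in all, and the 105 whose group mean signal reached 100 in any of the 3 groups were kept. Just inside the rule lay Rab7b 1424987_at, with a highest group mean of 101, Rab3c 1432415_at with 109 and Rab23 1422399_a_at with 122, and just outside it lay Rab37 1433947_at with 91.6, Rab5b 1422119_at with 78.7 and Rab3d 1449260_at with 75.6. In 6 of the 105 a group mean was under 100, and of these Rab2a 1418623_at was called with captopril, Rab2a 1418623_at, Rab3c 1432415_at and Rab11b 1439508_at between the ages, and Rab11b 1439508_at between Tg-18mo-ACEI and Tg-12mo. A gene had 1 probe set in 21 cases and 2 to 6 in the other 30, and probe sets of 1 gene are not independent. They were assigned to the gene by its symbol, and binding to transcripts of other genes was not checked. By the roles best known for each Rab, 35 probe sets (14 genes) belonged to the endoplasmic reticulum and Golgi, 16 (7 genes) to synaptic vesicles and secretory granules, 13 (7 genes) to early endosomes, 20 (10 genes) to recycling and delivery to the plasma membrane, 11 (8 genes) to late endosomes, lysosomes and autophagosomes, and 10 (5 genes) to other or less studied functions. Each Rab was put in a single group, though some, such as Rab4a, Rab4b, Rab31 and Rab34, also work at steps of another group. Counts by role depend on that choice, and other groupings were not tested.

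Rab GTPases are small GTP-binding proteins that mark the membranes of a cell, each serving its own step of vesicle traffic. A Rab is switched on when an exchange factor loads GTP and off when a GTPase-activating protein speeds GTP hydrolysis, and in its active form it recruits effectors that bud, carry, tether and fuse vesicles. In neurons the family serves transmitter release, the traffic of receptors and of amyloid precursor protein through endosomes, and transport along axons.

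The deposited signals were scaled by the authors to a target value of 600, and the trimmed mean of every chip met that target. Summed Rab signal lay between 245141 and 269591. Brightness at the top of the scale differed with age: the 99th percentile of signal was 12529 to 13872 on the 4 chips of 18 month-old mice and 19563 and 19707 on the Tg-12mo chips. Signs of RNA quality and of tissue makeup moved with the groups. The 3′ to 5′ signal ratio of β-actin was 1.98 and 1.88 (Tg-18mo), 1.45 and 1.38 (Tg-18mo-ACEI) and 1.83 and 1.77 (Tg-12mo), and the 18S rRNA control signal was 10219 and 11144 in Tg-18mo against 1999.95 to 2214 on the other 4 chips. Of 9 choroid plexus markers 8 were lower with captopril, with a median log2 difference of -2.50 over the list, and the exception was Ttr at 0.05. The summed signal of the 9 markers was 26284 and 28774 (Tg-18mo), 22119 and 20160.3 (Tg-18mo-ACEI) and 44234 and 44006 (Tg-12mo). Of 9 markers of meninges and vessels 6 were lower and 1 higher, of 6 interneuron markers 5 were lower, of 5 oligodendrocyte markers 3 were lower, of 9 general neuronal markers 4 were lower, and of 6 cerebellar granule cell markers 4 were higher and 1 lower, Gabra6 at 21.6 and 7.93 (Tg-18mo), 158 and 192 (Tg-18mo-ACEI) and 1.67 and 3.31 (Tg-12mo). Higher and lower counts were 3 and 2 of 6 for astrocytes, 2 and 2 of 7 for microglia, 3 and 2 of 7 for hippocampal excitatory neurons, and 1 and 2 of 5 for striatal projection neurons. Between the ages they were 2 and 6 for general neuronal markers, 2 and 1 for excitatory neurons and 2 and 2 for interneurons. Glial counts were 2 and 3 for oligodendrocytes, 2 and 3 for astrocytes and 4 and 2 for microglia. The rest were 4 and 1 for choroid plexus, 4 and 1 for meninges and vessels, 2 and 1 for cerebellar granule cells and 2 and 0 for striatal neurons. Between Tg-18mo-ACEI and Tg-12mo, in the same order, the neuronal counts were 1 and 7, 4 and 1, and 1 and 3. The glial counts were 1 and 3, 3 and 1, and 4 and 0, and the rest 0 and 9, 2 and 5, 3 and 1, and 1 and 1. The median of the general neuronal markers was -0.20 between the ages and -0.33 between Tg-18mo-ACEI and Tg-12mo. The part of these shifts in the Rab results was not tested.

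Captopril was compared first, as Tg-18mo-ACEI against Tg-18mo. At an adjusted p under 0.05, 26 Rab probe sets (24.8%) were higher and 17 (16.2%) were lower, against 15.9% and 17.7% of all tested probe sets. The Rab median of the log2 differences was 0.05 and that of all tested probe sets was -0.04. With the thresholds of the study, a 2-fold difference and p at or below 0.01 before adjustment, applied to limma's p, 4 Rab probe sets were higher and 1 was lower, against 3.03% and 1.06% of the chip. Applied to the methods' t-test the same thresholds gave 4 and 0, against 1.87% and 0.477%. With each gene represented by its brightest probe set, 10 of 51 Rab genes were higher and 10 were lower, against 12.6% and 21.7% of 12325 genes. Leaving out any 1 of the 4 chips compared lowered the counts of higher and lower Rab probe sets. The shares of all tested probe sets fell in the same fits, and the Rab median stayed between 0.04 and 0.06. In whole hippocampus, fewer cells of a type and less RNA per cell cannot be told apart.

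Age and plaque load were compared next, as Tg-18mo against Tg-12mo, where 22 Rab probe sets (21%) were higher and 30 (28.6%) were lower, against 25.9% and 21.5% of the chip. The Rab median was -0.04 and the median of all tested probe sets was 0.05, and after dividing each chip by its median these were -0.15 and -0.07, with 8 Rab probe sets higher and 37 lower, where the chip had 17.9% and 29.3%. By the study's thresholds on limma's p 1 was higher and 5 were lower (2.57% and 1.78% of the chip), and on the methods' t-test 1 and 2 (1.07% and 0.774%). By the brightest probe set 9 genes were higher and 16 were lower (28% and 21% of all genes). Without replicate 1 or 2 of Tg-18mo the count of higher Rab probe sets fell, as did the chip's share, and the Rab median was -0.02 and -0.03.

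Between Tg-18mo-ACEI and Tg-12mo, 27 Rab probe sets were higher and 18 were lower, against 22.3% and 17.7% of the chip, while dividing each chip by its median gave 15 and 28, against 14.3% and 26.8% of the chip, and quantile normalization 28 and 10, against 18.3% and 17.7%. The Rab counts after dividing by the median thus stood at the chip's own shares. The study's thresholds called 3 higher and, in contrast to limma's adjusted threshold, 0 lower on limma's p (2.05% and 1.24% of the chip), and 2 and 0 on the methods' t-test (0.838% and 0.567%). By the brightest probe set 11 genes were higher and 11 were lower, against 20.1% and 20.6% of all genes. Without replicate 1 or 2 of Tg-18mo-ACEI the count of higher Rab probe sets fell, as did the chip's share, and the Rab median was 0.06 in both fits. Each group enters 2 of the 3 comparisons, so the comparisons share chips, and their values are given side by side and not as support for each other.

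**Figure D1:**
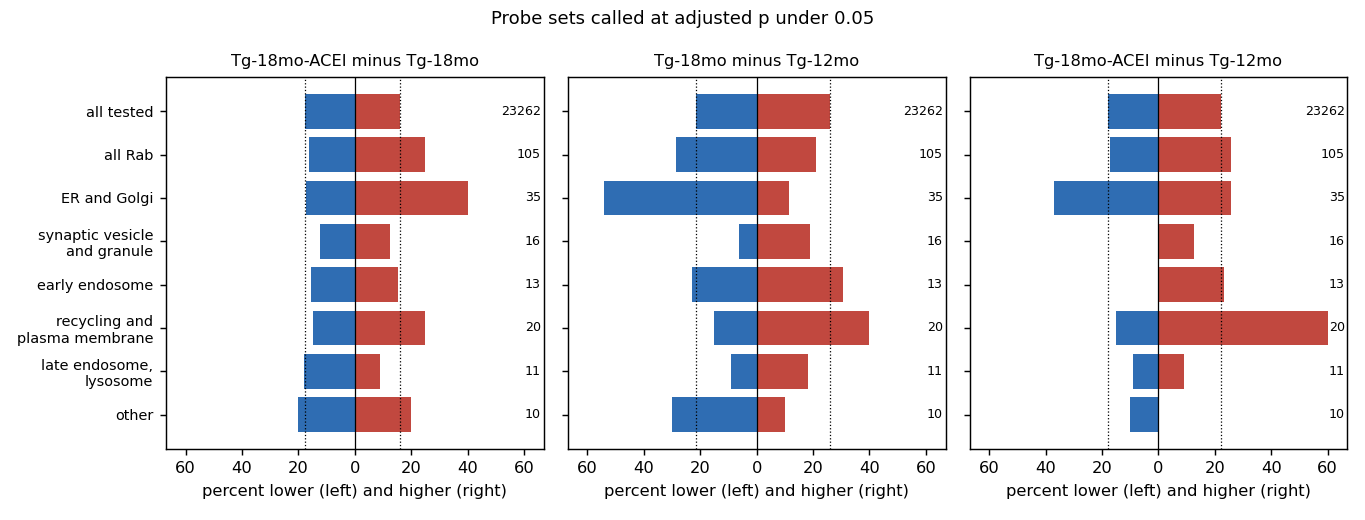
Share of probe sets called lower (blue, to the left) and higher (red, to the right) at an adjusted p under 0.05, in percent, for all tested probe sets, all Rab probe sets and each role group, with the number of probe sets at the right edge. Dotted lines mark the shares of all tested probe sets. The Rabs of the endoplasmic reticulum and Golgi have 19 of 35 lower between Tg-18mo and Tg-12mo and the recycling Rabs 12 of 20 higher between Tg-18mo-ACEI and Tg-12mo.

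The Rabs of the endoplasmic reticulum and Golgi, which move cargo between these compartments, held most of the large differences. Of their 35 probe sets, 14 rose and 6 fell with captopril, with a median log2 difference of 0.18. These are 40% and 17.1%, beside 15.9% and 17.7% of the chip, so the share of lower calls was that of the chip. Rab2a and Rab2b gave 4 of the rises each. By the brightest probe set 3 of the 14 genes were higher and 2 lower with captopril, with a median of 0.02. These are 21.4% and 14.3%, beside 12.6% and 21.7% of all genes. Between Tg-18mo and Tg-12mo 4 were higher and 19 lower, or 11.4% and 54.3% beside 25.9% and 21.5%, with a median of -0.24. Quantile normalization gave 3 and 14 with a median of -0.12 (22.1% and 21.7% of the chip), and dividing each chip by its median 1 and 21 (17.9% and 29.3% of the chip). By the brightest probe set 1 of the 14 genes was higher and 6 lower between the ages, or 7.14% and 42.9% beside 28% and 21% of all genes. Their probe set counts between Tg-18mo-ACEI and Tg-12mo were 9 higher and 13 lower, or 25.7% and 37.1% beside 22.3% and 17.7%. The same alternatives gave 11 and 7 (18.3% and 17.7% of the chip) and 5 and 15 (14.3% and 26.8%). Fewer were called higher between the ages without replicate 1 or 2 of Tg-18mo or replicate 1 of Tg-12mo, with medians of -0.24, -0.23 and -0.17. Between Tg-18mo-ACEI and Tg-12mo fewer were called higher without replicate 2 of Tg-18mo-ACEI, with a median of -0.08. The chip's share of higher calls fell in each of these fits as well.

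**Figure D2:**
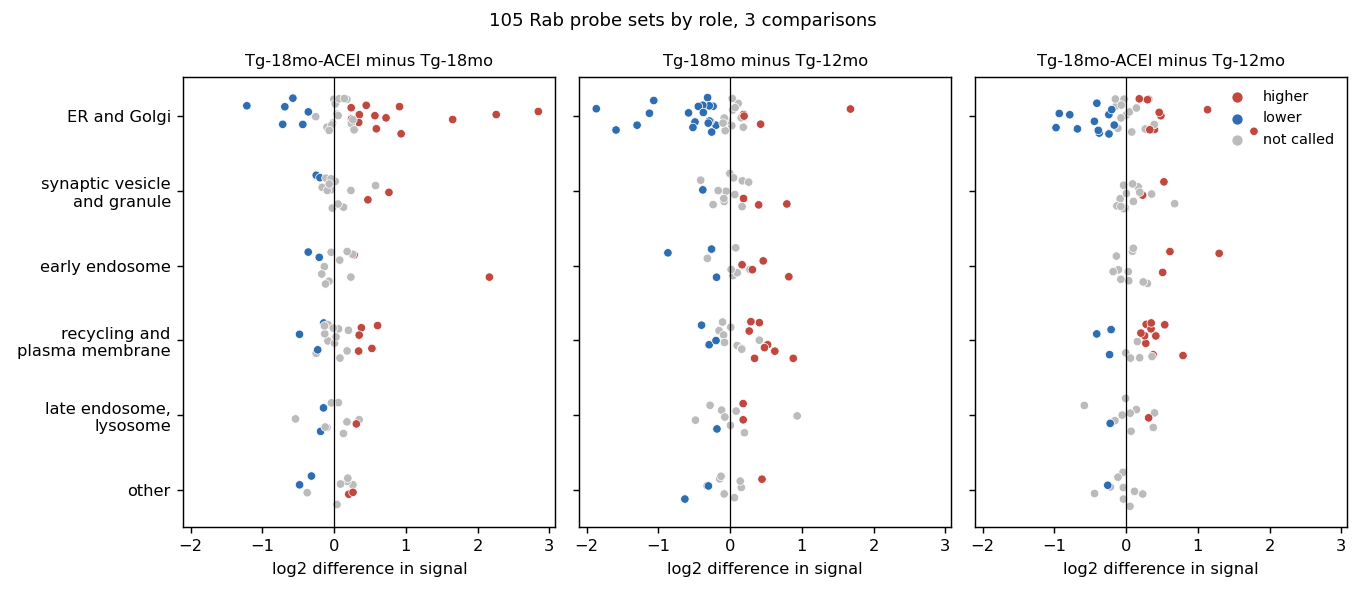
Log2 differences of the 105 Rab probe sets in the 3 comparisons, by role. Each point is a probe set, coloured by its call at an adjusted p under 0.05, with random vertical spread within a role. The points farthest from 0 with captopril are those of Rab6b 1437107_at at 2.85, Rab39b 1453246_at at 2.26 and Rab22a 1424504_at at 2.16.

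Rab6b, the form of the Golgi Rab6 that is enriched in brain, had probe sets that moved far in opposite directions. Which part of the locus each probe set reads is not known here, so the values belong to the probe sets and cannot be assigned to a transcript of the gene. The signal of 1437107_at was 382 and 361 (Tg-18mo), 2675 and 2665 (Tg-18mo-ACEI) and 759 and 793 (Tg-12mo). Both captopril chips lay far above the other 4, and both Tg-18mo chips lay below the Tg-12mo chips. The log2 differences were 2.85 ± 0.07 (SE, adjusted p = 2.1e-07) with captopril, -1.06 ± 0.07 (SE, adjusted p = 1.5e-05) between Tg-18mo and Tg-12mo, and 1.78 ± 0.07 (SE, adjusted p = 2.7e-06) between Tg-18mo-ACEI and Tg-12mo. The second probe set, 1455924_at, ran the other way at 1469 and 1769 (Tg-18mo), 692 and 696 (Tg-18mo-ACEI) and 496 and 511 (Tg-12mo). Its Tg-18mo chips were the highest, and it fell by 1.22 on the log2 scale with captopril (adjusted p = 4.5e-05), rose by 1.68 from Tg-12mo to Tg-18mo (adjusted p = 9.7e-06) and was 0.46 above Tg-12mo in Tg-18mo-ACEI (adjusted p = 0.0047). Probe set 1460617_s_at had 3329 and 3344 (Tg-18mo), 2592 and 2610.2 (Tg-18mo-ACEI) and 2815 and 3017 (Tg-12mo). Here too Tg-18mo was highest, with a log2 difference of -0.36 ± 0.05 (SE, adjusted p = 0.0012) with captopril and 0.20 ± 0.05 (SE, adjusted p = 0.014) between the ages. The brightest probe set, 1434914_at, had 12370.0 and 13943 (Tg-18mo), 12828 and 12228 (Tg-18mo-ACEI) and 16928 and 17077 (Tg-12mo). Its captopril chips overlapped the Tg-18mo chips, with a log2 difference of -0.07 ± 0.06 (SE, adjusted p = 0.42), and its differences from Tg-12mo of -0.37 (Tg-18mo) and -0.44 (Tg-18mo-ACEI) turned to 0.11 and 0.10 after quantile normalization, neither of them called. The call of 1460617_s_at between the ages was lost without replicate 1 or 2 of Tg-18mo or replicate 1 of Tg-12mo and after dividing each chip by its median, and that between Tg-18mo-ACEI and Tg-12mo (-0.16) in 5 of the 6 fits that left out a chip, all but that without replicate 1 of Tg-12mo. The 4 probe sets spanned 4.06 log2 units with captopril, a range that 0.0548% of the 5474 genes with several tested probe sets reached.

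**Figure D3:**
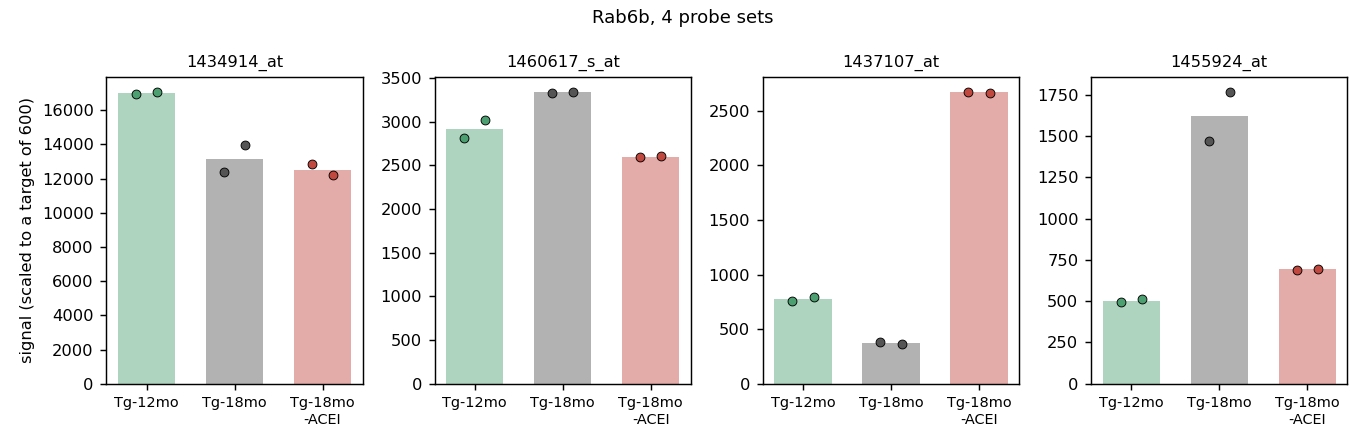
Signal of the 4 Rab6b probe sets, ordered from the brightest to the dimmest, on linear axes that start at 0 and differ between panels. Points are chips and bars are the means of the 2 chips of a group. Tg-18mo-ACEI is highest on 1437107_at and Tg-18mo is highest on 1455924_at.

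Rab6a, which serves transport from the Golgi back to the endoplasmic reticulum, also differed between its probe sets. Probe set 1447776_x_at had 5148 and 5448 (Tg-18mo), 7722 and 8215 (Tg-18mo-ACEI) and 7349 and 5703 (Tg-12mo), and rose with captopril by 0.59 ± 0.10 (SE, adjusted p = 0.0033). The 2 brighter probe sets had log2 differences of 0.14 (adjusted p = 0.078, 1448304_a_at) and 0.06 (adjusted p = 0.33, 1448305_at). For 1448305_at the signals were 11703 and 11518 (Tg-18mo), 12087 and 12048 (Tg-18mo-ACEI) and 15834 and 15712 (Tg-12mo). Both 18 month-old groups lay below Tg-12mo, with log2 differences of -0.44 for Tg-18mo and -0.39 for Tg-18mo-ACEI. After quantile normalization neither was called, and the second turned to 0.12. The calls of 1447776_x_at against Tg-12mo, -0.29 for Tg-18mo (adjusted p = 0.047) and 0.30 for Tg-18mo-ACEI (adjusted p = 0.048), were each lost in 5 of the 6 fits that left out a chip, and held only without replicate 2 of Tg-12mo for the first and without replicate 1 of Tg-12mo for the second.

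Rab2a, needed for transport between the endoplasmic reticulum and the Golgi, was measured by 6 probe sets, 4 of which rose with captopril while all 6 were lower in Tg-18mo than in Tg-12mo, although quantile normalization turned 2 of the 6, 1418622_at and 1419945_s_at, to 0.07 and 0.11. The dimmest were 1418623_at with 82.1 and 77.9 (Tg-18mo), 226 and 279 (Tg-18mo-ACEI) and 244 and 158 (Tg-12mo), 1419946_s_at with 119.7 and 149 (Tg-18mo), 262 and 249 (Tg-18mo-ACEI) and 557 and 425 (Tg-12mo), and 1449676_at with 336 and 282 (Tg-18mo), 563 and 595 (Tg-18mo-ACEI) and 962 and 889.8 (Tg-12mo). In all 3 the Tg-18mo chips were the lowest and no Tg-18mo chip overlapped another group. Their log2 differences with captopril were 1.65 ± 0.24 (SE, adjusted p = 0.0012), 0.93 ± 0.17 (SE, adjusted p = 0.0043) and 0.91 ± 0.11 (SE, adjusted p = 0.00042). Between Tg-18mo and Tg-12mo they were -1.30, -1.86 and -1.59, all at an adjusted p of 0.0024 or less. Against Tg-12mo the captopril group was 0.36 (adjusted p = 0.26), -0.93 (adjusted p = 0.0033) and -0.68 (adjusted p = 0.0013). Probe set 1418621_at had 4740.1 and 4753 (Tg-18mo), 5694 and 5536 (Tg-18mo-ACEI) and 5546 and 5330.4 (Tg-12mo), a rise of 0.24 ± 0.05 (SE, adjusted p = 0.0045) with captopril. The 2 brightest had differences of 0.02 (1418622_at, 10511 and 10216 (Tg-18mo), 10904 and 10059 (Tg-18mo-ACEI) and 12246 and 12509.9 (Tg-12mo)) and 0.04 (1419945_s_at, 11212 and 11095 (Tg-18mo), 11402 and 11497 (Tg-18mo-ACEI) and 13462 and 12830.1 (Tg-12mo)), neither of them called. Against Tg-12mo the captopril group had -0.24 and -0.20, which quantile normalization turned to 0.16 and 0.23, both then called higher, and the second call was also lost without replicate 1 of Tg-12mo.

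Rab2b, the second Rab2 gene, had 5 probe sets, all with positive captopril differences from 0.24 to 0.72, of which 4 were called. The brightest, 1452667_at, had 1086 and 946 (Tg-18mo), 1376 and 1389.8 (Tg-18mo-ACEI) and 1023 and 953 (Tg-12mo). Its captopril chips lay above all 4 others, by 0.45 ± 0.08 (SE, adjusted p = 0.0035) over Tg-18mo and 0.49 ± 0.08 (SE, adjusted p = 0.0017) over Tg-12mo. The dimmest, 1455857_a_at, had 133 and 128 (Tg-18mo), 204 and 227 (Tg-18mo-ACEI) and 206 and 184 (Tg-12mo), and was lower in Tg-18mo than in either other group, the call against Tg-12mo being lost without replicate 1 or 2 of Tg-18mo or replicate 1 of Tg-12mo. The captopril calls of 1428115_a_at, 1436923_at and 1455857_a_at were lost in 1 to 4 of the fits that left out a chip of the 2 groups, replicate 2 of Tg-18mo-ACEI among them for all 3.

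Rab1a, which carries cargo from the endoplasmic reticulum to the Golgi, had 9771 and 9474 (Tg-18mo), 11485 and 11847 (Tg-18mo-ACEI) and 13483 and 14066 (Tg-12mo) on its brighter probe set 1416082_at. Tg-18mo was lowest of the 3 groups, with a rise of 0.28 ± 0.05 (SE, adjusted p = 0.0026) with captopril and a difference of -0.52 ± 0.05 (SE, adjusted p = 6.1e-05) from Tg-12mo. The captopril group differed from Tg-12mo by -0.24, which quantile normalization turned to 0.20 (adjusted p = 0.0039 before, adjusted p = 0.017 after). Rab1b, its close relative, had log2 differences of -0.02, 0.02 and 0.00 in the captopril, age and Tg-18mo-ACEI against Tg-12mo comparisons, and none was called. Rab18, a Rab of the endoplasmic reticulum and lipid droplets, had 814 and 766 (Tg-18mo), 1162 and 1180.4 (Tg-18mo-ACEI) and 1122 and 1094 (Tg-12mo) on 1420899_at. Only Tg-18mo stood apart there, by 0.57 ± 0.06 (SE, adjusted p = 0.00037) with captopril and -0.49 ± 0.06 (SE, adjusted p = 0.00043) between the ages, while the brighter 1420900_a_at had 3957 and 4027 (Tg-18mo), 3940.3 and 4024 (Tg-18mo-ACEI) and 3438 and 3570 (Tg-12mo). Here the 4 chips of older mice lay above the Tg-12mo chips, with 0.19 between the ages (adjusted p = 0.01), a call lost without replicate 2 of Tg-18mo or replicate 1 of Tg-12mo and after dividing each chip by its median, and 0.00 with captopril.

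Rab39b, an X-linked neuronal Rab in which human mutations cause intellectual disability and early parkinsonism, rose on both probe sets with captopril. Probe set 1453246_at had 226 and 273 (Tg-18mo), 1104 and 1278 (Tg-18mo-ACEI) and 566 and 517 (Tg-12mo). The 3 groups did not overlap, with Tg-18mo lowest and Tg-18mo-ACEI highest, and the differences were 2.26 ± 0.12 (SE, adjusted p = 6.3e-06), -1.12 ± 0.12 (SE, adjusted p = 0.00014) and 1.14 ± 0.12 (SE, adjusted p = 0.00018). The brighter 1435014_at had 1662 and 1607 (Tg-18mo), 1789 and 2078 (Tg-18mo-ACEI) and 2052 and 1984 (Tg-12mo), or 0.24 ± 0.07 (SE, adjusted p = 0.038) with captopril. That call was lost without replicate 1 or 2 of Tg-18mo or replicate 2 of Tg-18mo-ACEI.

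Rab34, which positions lysosomes and takes part in building the primary cilium, fell with captopril on both probe sets. Probe set 1416591_at had 1138 and 1199 (Tg-18mo), 719 and 703 (Tg-18mo-ACEI) and 1258 and 1192 (Tg-12mo), and 1416590_a_at had 939 and 973 (Tg-18mo), 608 and 579 (Tg-18mo-ACEI) and 1167 and 1167 (Tg-12mo). On both, the captopril chips were the lowest of the 6. The differences were -0.72 ± 0.07 (SE, adjusted p = 0.00013) and -0.69 ± 0.07 (SE, adjusted p = 0.00017) from Tg-18mo, and -0.78 ± 0.07 (SE, adjusted p = 6.1e-05) and -0.98 ± 0.07 (SE, adjusted p = 2.8e-05) from Tg-12mo. In these 2 comparisons 8 and 9 of the 9 choroid plexus markers were also lower, Kl for one at 1675 and 1578 (Tg-18mo) and 551 and 555 (Tg-18mo-ACEI), and their part in the Rab34 values was not tested. Rab36, the closest relative of Rab34, fell on 1436471_at (378 and 367 (Tg-18mo), 233 and 268 (Tg-18mo-ACEI) and 292 and 263 (Tg-12mo)) with a difference of -0.57 ± 0.13 (SE, adjusted p = 0.0095), a call lost without replicate 1 or 2 of Tg-18mo or replicate 1 of Tg-18mo-ACEI, and had 0.07 on its brightest probe set. Rab43, a Golgi Rab, had 457 and 490.2 (Tg-18mo), 339 and 361 (Tg-18mo-ACEI) and 446 and 482 (Tg-12mo) on 1425333_at, a fall of 0.44 with captopril (adjusted p = 0.011) that was lost without replicate 2 of Tg-18mo or replicate 1 of Tg-18mo-ACEI. Rab33a had 2159 and 2214 (Tg-18mo), 2134 and 1952 (Tg-18mo-ACEI) and 2662 and 2629 (Tg-12mo) on 1417529_at, with differences from Tg-12mo of -0.27 (Tg-18mo) and -0.37 (Tg-18mo-ACEI), and Rab33b and Rab30 had no call with captopril.

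**Figure D4:**
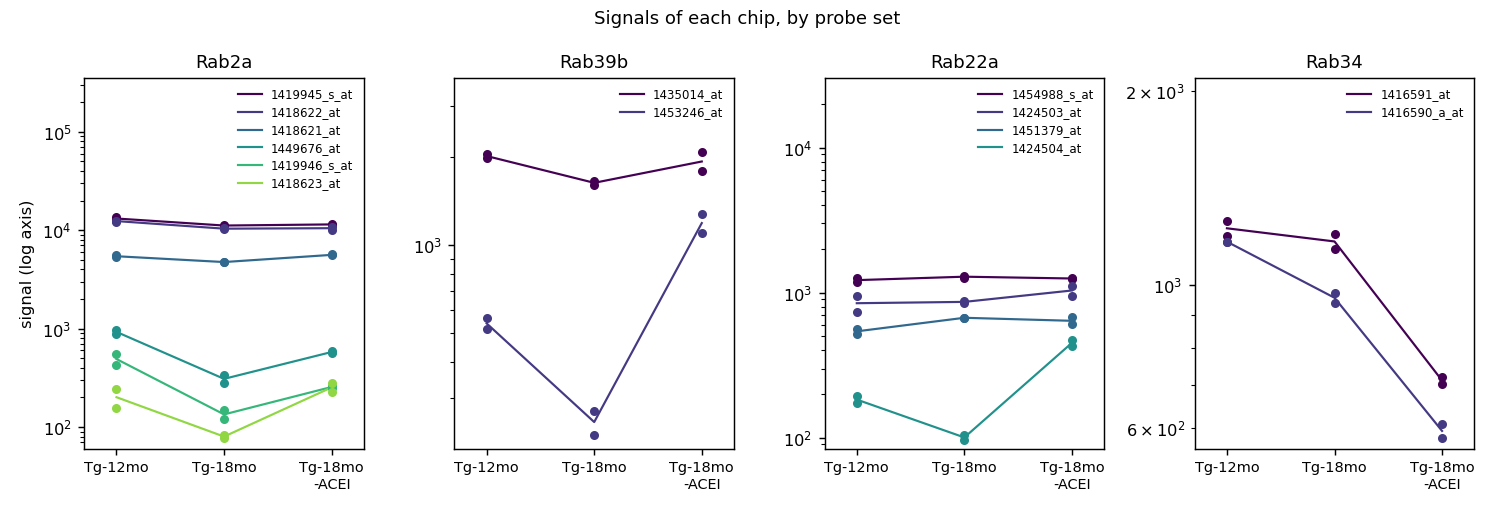
Signals of Rab2a, Rab39b, Rab22a and Rab34 on log axes that differ between panels. Points are chips, lines join the group means of a probe set, and colours mark probe sets from the brightest (dark) to the dimmest (light). The 3 dim Rab2a probe sets, 1453246_at of Rab39b and 1424504_at of Rab22a are lowest in Tg-18mo, and both Rab34 probe sets are lowest in Tg-18mo-ACEI.

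Synaptic vesicle and secretory granule Rabs serve the regulated release of transmitter and hormones. Of their 16 probe sets 2 rose and 2 fell with captopril, 12.5% each way beside 15.9% and 17.7% of the chip. Between Tg-18mo and Tg-12mo 3 were higher and 1 lower, or 18.8% and 6.25% beside 25.9% and 21.5%, and between Tg-18mo-ACEI and Tg-12mo 2 were higher and 0 lower, beside 22.3% and 17.7%. Dividing each chip by its median gave 0 higher and 2 lower in both of the latter (17.9% and 29.3%, and 14.3% and 26.8% of the chip). Quantile normalization gave 4 and 2 (22.1% and 21.7% of the chip) and 3 and 0 (18.3% and 17.7%). Without replicate 2 of Tg-18mo the calls with captopril and between the ages were lost, with medians of 0.04 and 0.02. The chip's shares fell in that fit as well. Rab3a, the main Rab of synaptic vesicles, had 9615 and 10526 (Tg-18mo), 8886 and 8665 (Tg-18mo-ACEI) and 8519 and 9162 (Tg-12mo) on 1422589_at. Tg-18mo was highest there, with a fall of 0.20 with captopril (adjusted p = 0.032) and a rise of 0.19 between the ages (adjusted p = 0.029), and the captopril group differed from Tg-12mo by -0.01, turned to 0.27 by quantile normalization. Its other probe set, 1459980_x_at, had 14760.1 and 15392 (Tg-18mo), 13605 and 13266 (Tg-18mo-ACEI) and 12348 and 14518 (Tg-12mo) and was not called, with -0.17, 0.17 and 0.00 in the captopril, age and Tg-18mo-ACEI against Tg-12mo comparisons. Rab3b had 1018 and 1071 (Tg-18mo), 1721 and 1217 (Tg-18mo-ACEI) and 1374 and 1343 (Tg-12mo) on 1422583_at. Tg-18mo was lowest, 0.47 ± 0.14 (SE, adjusted p = 0.028) under the captopril group and -0.38 ± 0.14 (SE, adjusted p = 0.047) against Tg-12mo, and the captopril chips were far apart. Rab3c had 4 probe sets without a call under captopril, the brightest 1435047_at with 7112 and 7286 (Tg-18mo), 6936 and 6541 (Tg-18mo-ACEI) and 6963 and 6790.4 (Tg-12mo), the last 2 groups overlapping. The others were 1432432_a_at with 737 and 778 (Tg-18mo), 939 and 845 (Tg-18mo-ACEI) and 748 and 770.1 (Tg-12mo), 1449494_at with 873 and 786 (Tg-18mo), 882 and 794 (Tg-18mo-ACEI) and 879 and 879.8 (Tg-12mo), and 1432415_at with 96.3 and 122 (Tg-18mo), 106 and 94.3 (Tg-18mo-ACEI) and 65.5 and 59.6 (Tg-12mo). Of these, 1432432_a_at was 0.23 higher in Tg-18mo-ACEI than in Tg-12mo (adjusted p = 0.046) and 1432415_at 0.79 higher in Tg-18mo than in Tg-12mo (adjusted p = 0.034), its Tg-12mo signals both being under 100, and each of these calls was lost in 5 of the 6 fits that left out a chip. Rab27b, which docks secretory vesicles, rose on 1417215_at (186 and 164 (Tg-18mo), 306 and 289 (Tg-18mo-ACEI) and 181 and 234 (Tg-12mo)) by 0.76 ± 0.17 (SE, adjusted p = 0.009), while its other 3 probe sets had captopril differences from -0.04 to 0.58 that were not called. Rab26 fell by 0.25 with captopril (adjusted p = 0.026), and Rab3d and Rab27a had no captopril call. The captopril calls of all 4 genes named as called here were lost when 1 of the chips was left out: Rab3a and Rab26 with 3 of the 4 chips of the 2 groups, Rab3b with 3, and Rab27b with 2, replicate 2 of Tg-18mo among them each time. The age call of Rab3a was lost without replicate 2 of Tg-18mo or replicate 1 of Tg-12mo and after dividing each chip by its median, and that of Rab3b without any 1 of the 4 chips compared.

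Early endosome Rabs, which receive cargo from the plasma membrane, had 2 of 13 probe sets higher and 2 lower with captopril, 15.4% each way beside 15.9% and 17.7% of the chip. Between the ages 4 were higher and 3 lower, or 30.8% and 23.1% beside 25.9% and 21.5%, and between Tg-18mo-ACEI and Tg-12mo 3 were higher and 0 lower, beside 22.3% and 17.7%. The first 2 pairs of shares were thus near those of the chip. Dividing each chip by its median gave 2 and 3 (17.9% and 29.3% of the chip) and 3 and 2 (14.3% and 26.8%) in the last comparisons. Fewer were called higher between the ages without replicate 1 or 2 of Tg-18mo or replicate 1 of Tg-12mo. The medians were then 0.07, 0.05 and 0.12, and the chip's share of higher calls fell as well. Rab22a held the largest rise of the group. Its dimmest probe set 1424504_at had 95.9 and 105 (Tg-18mo), 473 and 429 (Tg-18mo-ACEI) and 194 and 173 (Tg-12mo). The 3 groups did not overlap, and the differences were 2.16 ± 0.15 (SE, adjusted p = 2.9e-05), -0.87 ± 0.15 (SE, adjusted p = 0.002) and 1.30 ± 0.15 (SE, adjusted p = 0.00031). Its other 3 probe sets had captopril differences of 0.26, -0.07 and -0.04, none of them called, and on 1451379_at (673 and 669.6 (Tg-18mo), 676 and 604 (Tg-18mo-ACEI) and 523 and 560.4 (Tg-12mo)) Tg-18mo was 0.31 above Tg-12mo (adjusted p = 0.019), lost without replicate 1 or 2 of Tg-18mo or replicate 1 of Tg-12mo and under both other scalings. Rab31, which works between the trans-Golgi and endosomes, had 2934 and 2908 (Tg-18mo), 2378 and 2176 (Tg-18mo-ACEI) and 2099 and 2142 (Tg-12mo) on 1416165_at. Tg-18mo stood above both other groups, with -0.36 ± 0.06 (SE, adjusted p = 0.002) with captopril and 0.46 ± 0.06 (SE, adjusted p = 0.00029) between the ages. The dimmer 1431691_a_at had 0.18 with captopril and -0.32 between the ages, neither of them called. Rab21, a Rab of integrin endocytosis, rose on 1437741_at by 0.28 ± 0.06 (SE, adjusted p = 0.006) with captopril, and on 1437742_at (688 and 783 (Tg-18mo), 929.5 and 800.4 (Tg-18mo-ACEI) and 569 and 644 (Tg-12mo)) lay 0.51 above Tg-12mo in the captopril group (adjusted p = 0.0058, lost without replicate 1 of Tg-18mo-ACEI). Rab5c, one of the early endosome fusion Rabs, had 1035 and 1068 (Tg-18mo), 908 and 914 (Tg-18mo-ACEI) and 611 and 581 (Tg-12mo) on 1424684_at. Both older groups exceeded Tg-12mo, by 0.82 ± 0.07 (SE, adjusted p = 4.5e-05) and 0.61 ± 0.07 (SE, adjusted p = 0.00023), and the smaller captopril difference of -0.21 (adjusted p = 0.046) was lost without any 1 of the 4 chips compared. Rab5a, the best known of them, had 5996 and 5438 (Tg-18mo), 5709.5 and 6369 (Tg-18mo-ACEI) and 6824 and 6837 (Tg-12mo) on 1416426_at, with no captopril call and a difference of -0.26 ± 0.07 (SE, adjusted p = 0.012) between the ages that was lost without replicate 2 of Tg-18mo and after quantile normalization. Rab4a and Rab4b, of rapid recycling, had captopril differences from -0.17 to -0.12 and no captopril call.

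Recycling and plasma membrane Rabs, which return endocytosed receptors and deliver new membrane, had 5 of 20 probe sets higher and 3 lower with captopril, or 25% and 15% beside 15.9% and 17.7% of the chip. Between the ages 8 were higher and 3 lower, or 40% and 15% beside 25.9% and 21.5%, and between Tg-18mo-ACEI and Tg-12mo 12 were higher and 3 lower, or 60% and 15% beside 22.3% and 17.7%. After dividing each chip by its median the last of these was 7 higher and 3 lower (14.3% and 26.8% of the chip) and the age count 5 and 6 (17.9% and 29.3%). Without replicate 1 or 2 of Tg-18mo-ACEI fewer than the 12 were called higher, with medians of 0.25 and 0.28. Without any 1 of the 4 chips compared, fewer than the 3 were called lower with captopril, with medians from 0.01 to 0.03. The chip's shares in these directions fell in the same fits. By the brightest probe set 2 of the 10 genes were higher and 3 lower with captopril, with a median of -0.002. These are 20% and 30%, beside 12.6% and 21.7% of all genes. Between the ages 5 genes were higher and 3 lower (28% and 21% of all genes). Between Tg-18mo-ACEI and Tg-12mo 6 genes were higher and 2 lower (20.1% and 20.6% of all genes). Rab12, of transferrin receptor degradation, had 1418 and 1537 (Tg-18mo), 2219.7 and 2274 (Tg-18mo-ACEI) and 1668 and 1714 (Tg-12mo) on 1427992_a_at. The captopril chips were the highest, 0.61 ± 0.06 (SE, adjusted p = 0.00017) over Tg-18mo and 0.41 ± 0.06 (SE, adjusted p = 0.00086) over Tg-12mo. Rab10, which drives delivery of membrane to the growing axon, rose with captopril on 1429296_at (1417 and 1320.1 (Tg-18mo), 1984 and 1958 (Tg-18mo-ACEI) and 1517 and 1525 (Tg-12mo)) by 0.53 ± 0.06 (SE, adjusted p = 0.0003) and on 1422664_at by 0.38 ± 0.06 (SE, adjusted p = 0.0029), and its brightest probe set 1453095_at had 0.18 (adjusted p = 0.096). Rab8b, of exocytic delivery, rose by 0.34 ± 0.05 (SE, adjusted p = 0.0013). Rab8a had -0.23 (adjusted p = 0.025) on its brighter probe set, a call lost without any 1 of the 4 chips. Its other probe set had 0.20 and was not called. Rab35, of fast recycling, had 2033 and 2196 (Tg-18mo), 1475 and 1552 (Tg-18mo-ACEI) and 1437 and 1599 (Tg-12mo) on 1433922_at. Tg-18mo stood above both other groups, with -0.48 ± 0.07 (SE, adjusted p = 0.0014) with captopril and 0.48 ± 0.07 (SE, adjusted p = 0.0008) between the ages. The recycling endosome Rabs Rab11a and Rab11b differed from each other. Rab11b had 4717 and 4875 (Tg-18mo), 4387 and 4288 (Tg-18mo-ACEI) and 3386 and 3288 (Tg-12mo) on 1423448_at and 154 and 167 (Tg-18mo), 143 and 159 (Tg-18mo-ACEI) and 78.7 and 96.1 (Tg-12mo) on 1439508_at. Both older groups exceeded Tg-12mo on both, by 0.52 and 0.38 on the first and 0.88 and 0.79 on the second, and the captopril difference of -0.14 on the first was lost without any 1 of the 4 chips. On 1439508_at, whose Tg-12mo mean was under 100, the age call was lost without replicate 2 of Tg-18mo and the call between Tg-18mo-ACEI and Tg-12mo without replicate 1 or 2 of Tg-18mo-ACEI. Rab11a had 3076 and 2631 (Tg-18mo), 3598 and 3650.5 (Tg-18mo-ACEI) and 3204 and 2861 (Tg-12mo) on 1434549_at, where the captopril chips were highest, with a rise of 0.35 (adjusted p = 0.012) that was lost without replicate 2 of Tg-18mo or either captopril chip. Its 1449256_a_at had 3048 and 3046 (Tg-18mo), 3153 and 3207 (Tg-18mo-ACEI) and 3641 and 3816 (Tg-12mo), lower in both older groups than in Tg-12mo (-0.29 and -0.23). Rab14, between the trans-Golgi and endosomes, had no captopril call on 5 probe sets and age calls in both directions. Probe set 1419245_at had 348 and 337 (Tg-18mo), 334 and 312 (Tg-18mo-ACEI) and 196 and 252 (Tg-12mo), higher by 0.62 between the ages, as was 1419243_at by 0.27, a call lost after dividing each chip by its median, and 1419246_s_at had 9946 and 10664 (Tg-18mo), 9903 and 10552 (Tg-18mo-ACEI) and 13369 and 13768 (Tg-12mo), lower by 0.40, a call that was lost after quantile normalization. Rab15 and Rab13 were higher in both older groups than in Tg-12mo, by 0.34 and 0.21 and by 0.41 and 0.42, and the differences from Tg-12mo in both were not called after dividing each chip by its median, except that of Rab15 between the ages. The age call of Rab13 was also lost without replicate 1 or 2 of Tg-18mo or replicate 2 of Tg-12mo, its call between Tg-18mo-ACEI and Tg-12mo without either captopril chip or replicate 2 of Tg-12mo and after quantile normalization, and that of Rab15 without replicate 2 of Tg-18mo-ACEI or replicate 1 of Tg-12mo.

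Late endosome, lysosome and autophagosome Rabs had 1 of 11 probe sets higher and 2 lower with captopril, or 9.09% and 18.2% beside 15.9% and 17.7% of the chip. Between the ages 2 were higher and 1 lower, or 18.2% and 9.09% beside 25.9% and 21.5%, and between Tg-18mo-ACEI and Tg-12mo 1 was higher and 1 lower, or 9.09% each way beside 22.3% and 17.7%. Dividing each chip by its median gave 0 and 2 (17.9% and 29.3% of the chip) and 0 and 3 (14.3% and 26.8%) in the last comparisons. The 2 lower calls with captopril were lost without any 1 of the 4 chips compared. Between the ages the 2 higher calls were lost without replicate 1 or 2 of Tg-18mo. The 1 lower call between the ages was lost without replicate 2 of Tg-18mo or replicate 1 of Tg-12mo. In each of these fits the chip's share in that direction fell as well. Rab7, the central Rab of late endosomes, had 8354 and 8643 (Tg-18mo), 7675 and 7667 (Tg-18mo-ACEI) and 8964 and 8915 (Tg-12mo) on 1415734_at. The captopril chips were the lowest, with differences of -0.15 from Tg-18mo (adjusted p = 0.029), a call lost without any 1 of the 4 chips, and -0.22 from Tg-12mo, which quantile normalization turned to 0.03. Rab9b, which returns receptors from late endosomes, rose by 0.31 ± 0.07 (SE, adjusted p = 0.011) with captopril and lost that call without replicate 2 of either group, while Rab9 had 0.13 (adjusted p = 0.084). Rab24, an autophagy Rab, fell on 1421873_s_at by 0.19 (adjusted p = 0.036), also lost without any 1 of the 4 chips, and had 0.06 on its brighter probe set. Rab29, Rab32, Rab38 and Rab7b had no call in any comparison.

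Among the other Rabs 2 of 10 probe sets were higher and 2 lower with captopril, 20% each way beside 15.9% and 17.7% of the chip. Counts were 1 and 3 between the ages, or 10% and 30% beside 25.9% and 21.5%, and 0 and 1 between Tg-18mo-ACEI and Tg-12mo, the lower one being 10% beside 17.7%. Without replicate 2 of Tg-18mo the 2 higher calls with captopril were lost. The 1 higher call between the ages was lost in 5 of the 6 fits that left out a chip. The chip's share of higher calls fell in these fits as well. Rab40c, which joins a ubiquitin ligase, fell with captopril on both probe sets. The brighter 1424331_at had 2210.1 and 2175 (Tg-18mo), 1854 and 1674 (Tg-18mo-ACEI) and 2117 and 2087 (Tg-12mo), with the captopril chips lowest and a difference of -0.32 ± 0.06 (SE, adjusted p = 0.0052). The dimmer 1424332_at had 323 and 275 (Tg-18mo), 228 and 199.9 (Tg-18mo-ACEI) and 241 and 199 (Tg-12mo) and -0.48 (adjusted p = 0.049), a call lost without any 1 of the 4 chips. Its relative Rab40b rose on 1436566_at by 0.26 (adjusted p = 0.013) and Rab28, known from cilia, on 1423990_at (3119 and 2983 (Tg-18mo), 3542 and 3486 (Tg-18mo-ACEI) and 3762 and 3834 (Tg-12mo)) by 0.20 (adjusted p = 0.012), and both calls were lost without replicate 2 of Tg-18mo, that of Rab40b also without replicate 2 and that of Rab28 without replicate 1 of Tg-18mo-ACEI. On these probe sets both were lower in Tg-18mo than in Tg-12mo, with differences of -0.30 and -0.32. The other probe set of Rab40b had 0.14 between the ages and that of Rab28 had -0.13, neither of them called. Rab42 had 121 and 131 (Tg-18mo), 135 and 153 (Tg-18mo-ACEI) and 193 and 197 (Tg-12mo) on 1444450_at, lower in Tg-18mo than in Tg-12mo by 0.63 (adjusted p = 0.017), a call lost without replicate 1 or 2 of Tg-18mo. Rab23, which acts in hedgehog signalling, had no call on any of its 3 probe sets.

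Probe sets of the same gene were then set side by side. Of the 30 Rab genes with several probe sets, 18 had all captopril differences of the same sign, and the share of other genes that did was not counted. For 1 gene, Rab6b, there was a call in each direction, against 5.15% of 5474 genes on the chip. Between the ages 4 of 30 had calls in both directions (Rab14, Rab18, Rab22a and Rab6b), against 14.1% of all such genes, and between Tg-18mo-ACEI and Tg-12mo 4 of 30 (Rab11a, Rab14, Rab6a and Rab6b), against 8.35%. The 5 members that reached 2-fold with captopril were on Rab6b (2 probe sets), Rab39b, Rab22a and Rab2a, and 0 of the 5 were the brightest probe set of their gene. All 5 passed the study's thresholds on limma's p. Over the chip 706 probe sets passed these as higher and 247 as lower, of 23262. By the brightest probe set 108 and 155 of 12325 genes passed, so few brightest probe sets did so anywhere. By the brightest probe sets, captopril differences ran from -0.72 for Rab34 to 0.61 for Rab12.

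**Figure D5:**
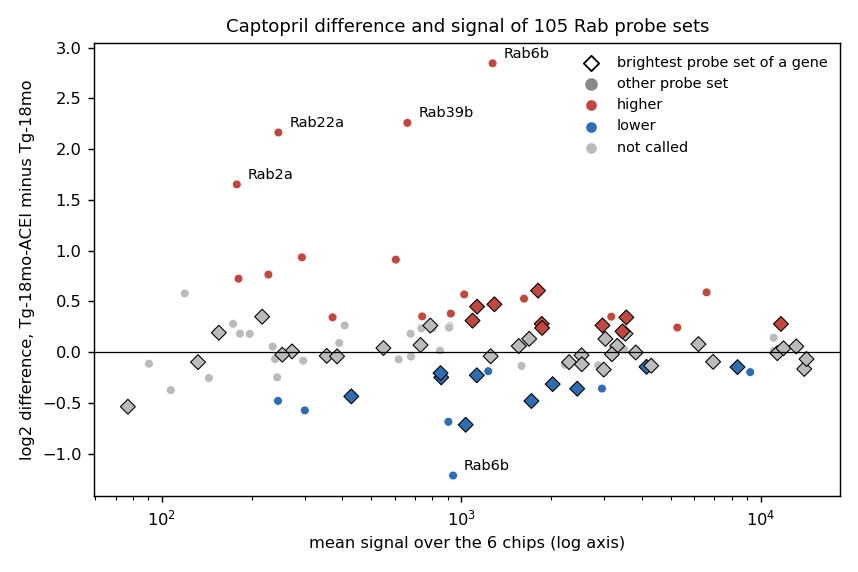
Captopril log2 difference of the 105 Rab probe sets against their mean signal over the 6 chips (log axis). Diamonds are the brightest probe set of each gene and circles the others, coloured by the call at an adjusted p under 0.05. The 5 named circles are the members at 2-fold or more, and the diamonds stay between -0.72 and 0.61.

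In 6 genes all members had captopril differences of 1 sign and at least 2 were called: Rab10, Rab2a, Rab2b and Rab39b rose, and Rab34 and Rab40c fell. How many genes of the chip did the same was not counted. The calls of Rab39b on 1435014_at, of Rab40c on 1424332_at and of Rab2b on 1428115_a_at, 1436923_at and 1455857_a_at were lost in fits that left out a chip. The 250 bases before the transcription start are shown for 5 of these genes, because their probe sets moved together, and Rab2a was not matched to a promoter window. Sequences are from RefSeq on GRCm38.p6, in the direction of transcription, for the most upstream start listed. They lie at chr12:3309970-3310219 (minus strand, Rab10), chr14:52279396-52279645 (minus strand, Rab2b), chrX:75578232-75578481 (minus strand, Rab39b), chr11:78188177-78188426 (plus strand, Rab34) and chr17:25919715-25919964 (minus strand, Rab40c). Capitals mark GC boxes (GGGCGG) and CCAAT boxes (CCAAT), each searched on both strands.
Rab10: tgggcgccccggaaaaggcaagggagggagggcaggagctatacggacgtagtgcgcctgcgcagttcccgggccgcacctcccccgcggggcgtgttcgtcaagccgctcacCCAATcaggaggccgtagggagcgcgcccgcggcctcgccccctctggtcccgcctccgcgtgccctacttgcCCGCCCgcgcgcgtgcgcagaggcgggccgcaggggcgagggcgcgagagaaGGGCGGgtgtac
Rab2b: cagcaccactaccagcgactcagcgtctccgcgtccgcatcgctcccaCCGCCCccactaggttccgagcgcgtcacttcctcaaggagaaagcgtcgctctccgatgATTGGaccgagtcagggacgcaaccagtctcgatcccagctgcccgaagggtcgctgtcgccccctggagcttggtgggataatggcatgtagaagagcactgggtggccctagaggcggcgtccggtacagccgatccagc
Rab39b: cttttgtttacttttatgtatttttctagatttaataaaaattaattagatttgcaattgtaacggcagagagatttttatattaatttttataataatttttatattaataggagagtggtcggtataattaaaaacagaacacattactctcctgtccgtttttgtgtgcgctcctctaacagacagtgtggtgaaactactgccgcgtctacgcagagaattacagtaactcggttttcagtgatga
Rab34: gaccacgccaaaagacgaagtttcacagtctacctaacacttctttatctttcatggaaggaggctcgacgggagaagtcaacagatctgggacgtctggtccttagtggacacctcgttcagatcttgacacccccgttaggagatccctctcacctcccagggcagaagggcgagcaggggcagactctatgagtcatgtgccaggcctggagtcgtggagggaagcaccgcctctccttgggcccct
Rab40c: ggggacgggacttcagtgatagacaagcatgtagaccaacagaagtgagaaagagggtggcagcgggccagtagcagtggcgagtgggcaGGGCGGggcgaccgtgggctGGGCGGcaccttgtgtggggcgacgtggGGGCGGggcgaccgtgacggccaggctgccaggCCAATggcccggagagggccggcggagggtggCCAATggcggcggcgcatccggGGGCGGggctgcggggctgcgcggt
The GC box was found 2 times before Rab10, 1 time before Rab2b and 4 times before Rab40c, and the CCAAT box 1, 1 and 2 times. Neither was found before Rab39b or Rab34, which says only that these letters are not in those windows. Among 32851 such RefSeq windows 32.7% hold a GC box and 33.8% a CCAAT box, and of the 54 windows matched to 42 of the 51 Rab genes 68.5% and 40.7% do.

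Genes that regulate or read Rabs were counted from a list of 114, of which 100 were tested by their brightest probe set. With captopril 15 were higher and 19 lower, between the ages 43 and 23, and between Tg-18mo-ACEI and Tg-12mo 31 and 18, beside the shares of all genes given above. By class, the captopril counts were 1 and 0 of 6 GDP dissociation inhibitors, escort and prenylation proteins, 4 and 4 of 24 exchange factors, 5 and 6 of 28 GTPase-activating proteins, and 5 and 9 of 42 effectors, and the age counts 2 and 2, 9 and 7, 14 and 7, and 18 and 7. Dividing each chip by its median gave 28 and 31 between the ages and 19 and 30 between Tg-18mo-ACEI and Tg-12mo. Of all tested probe sets that setting called 17.9% and 29.3%, and 14.3% and 26.8%. The shares of all genes by the brightest probe set were not counted there. Leaving out replicate 1 or 2 of Tg-18mo or of Tg-18mo-ACEI lowered the count of lower calls with captopril. Without replicate 2 of Tg-18mo the count of higher calls fell too, and the chip's shares fell in the same fits. Bicd2, a dynein adaptor that binds Rab6, had 1456 and 1458 (Tg-18mo), 2334 and 2496 (Tg-18mo-ACEI) and 2684 and 2537 (Tg-12mo). Tg-18mo was lowest, with a rise of 0.73 ± 0.06 (SE, adjusted p = 5e-05) with captopril and -0.84 ± 0.06 (SE, adjusted p = 1.9e-05) between the ages. Evi5, a GTPase-activating protein, had the same order at 2199.8 and 2147 (Tg-18mo), 3639 and 3514 (Tg-18mo-ACEI) and 3730.4 and 3877 (Tg-12mo), with 0.72 ± 0.05 (SE, adjusted p = 2.5e-05) and -0.81 ± 0.05 (SE, adjusted p = 1.4e-05). Rab3gap1, the catalytic subunit of the Rab3 GTPase-activating protein, had 1535 and 1618 (Tg-18mo), 2624 and 2544 (Tg-18mo-ACEI) and 1841 and 1749 (Tg-12mo), and rose with captopril by 0.71 ± 0.06 (SE, adjusted p = 5.3e-05). Rilp, the Rab7 effector that recruits dynein, had 220.2 and 253 (Tg-18mo), 131 and 74.7 (Tg-18mo-ACEI) and 201 and 308 (Tg-12mo). It fell by 1.25 with captopril (adjusted p = 0.012), which was lost without replicate 2 of Tg-18mo or of Tg-18mo-ACEI, and by 1.33 against Tg-12mo (adjusted p = 0.0074). Madd and Sbf1, both exchange factors, were higher in Tg-18mo than in Tg-12mo by 0.92 and 0.91, and fell with captopril by 0.27 and 0.37. Tbc1d22b, a protein with the domain of Rab GTPase-activating proteins, was 0.91 higher between the ages. Mical3, a Rab8 effector, Rab11fip3, a Rab11 effector, and Zfyve1, a lipid-binding protein of autophagosome formation, were higher in Tg-18mo-ACEI than in Tg-12mo by 0.87, 0.77 and 0.70, with captopril differences of 0.04, 0.02 and 0.08 that were not called.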

How the data were processed

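RNA of 6 hippocampal pools (3 groups of 2 chips, 4 mice a pool) was measured on 1-colour Affymetrix MG430 2.0 chips. The deposited intensity values are linear probe set signals, which the authors made with GCOS version 1.4 at a target value of 600; detection calls were not used here. No column was left unmapped. Signals were taken as log2 and fitted with limma 3.58.1 (R 4.3.3; lmFit, then eBayes with an intensity trend) over all 6 chips and the 23262 probe sets whose mean signal reached 100 in a group, leaving out 64 control probe sets. This left 3 residual and 5.374 prior degrees of freedom. Adjusted p-values are Benjamini-Hochberg over all 23262 probe sets, and a call is an adjusted p under 0.05. The fit was tested on simulated data. Tables were made with Python 3.11.15 and pandas 2.3.3. Groups came from the sample labels. Gene symbols are those of GEO's platform annotation, where 21122 of the tested probe sets have 1 symbol. The members and lists were chosen with earlier results of these data known. Per-chip values are given for the 10 largest rises and falls called in each comparison, all probe sets of Rab6b, Rab2a, Rab3a, Rab3b and Rab3c, the brightest member of each role and the ends of the range of differences in genes with 3 or more probe sets and calls both ways, and of the regulators and effectors the 4 largest differences a comparison are named. Counts were repeated with quantile normalization, with chips divided by their medians, with 32 added to the signals, with no signal filter or one at a mean of 200, without the trend, with replicate as a block, with fits restricted to the chips compared, by the methods' t-test, by the study's thresholds on limma's p and, as an alternative chosen after seeing the data, on the methods' t-test, with other choices of probe set for a gene, and leaving out each chip. The number of chips limits the precision.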

Additional observations from a re-analysis of the deposited data

How the results depend on the processing

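Rab probe sets called higher and lower are given in pairs for captopril, for age and for Tg-18mo-ACEI against Tg-12mo. The methods' t-test with Benjamini-Hochberg adjustment called 0 and 0, 1 and 1, and 0 and 0 probe sets, and 0 and 0, 1 and 1, and 0 and 0 genes by the brightest probe set. Of all tested probe sets it called 0.189% and 0.116%, 2.42% and 2.13%, and 0.0387% and 0.0559%. At an unadjusted p under 0.05 it called 24 and 16, 17 and 25, and 20 and 16 Rab probe sets, and the chip's shares were not counted. The study's thresholds, a 2-fold difference and an unadjusted p at or below 0.01, called 4 and 1, 1 and 5, and 3 and 0 probe sets on limma's p and 4 and 0, 1 and 2, and 2 and 0 on the methods' t-test (chosen after seeing the data), and 0 genes in each direction on either. Without the signal filter 11 probe sets were lower with captopril (14% of the chip), and without the intensity trend 9 (12.8% of the chip). Without the trend 6 genes were higher and 5 lower with captopril, and 7 genes were higher than Tg-12mo in Tg-18mo-ACEI. The shares of all genes were not counted in that fit. Of all tested probe sets it called 12.3% higher and 12.8% lower with captopril, and 18.9% higher for Tg-18mo-ACEI against Tg-12mo. Dividing each chip by its median gave 8 probe sets (17.9% of the chip) and 5 genes higher with age, and 15 and 28 probe sets (14.3% and 26.8% of the chip) and 5 and 20 genes for Tg-18mo-ACEI against Tg-12mo. That setting moved the median log2 difference of all tested probe sets with age from 0.05 to -0.07. Quantile normalization gave 10 probe sets (17.7% of the chip) and 5 genes lower for Tg-18mo-ACEI against Tg-12mo. For the gene counts under both scalings the shares of all genes were not counted. Averaging a gene's probe sets gave 17 genes higher with captopril and 5 lower for Tg-18mo-ACEI against Tg-12mo, and the shares of all genes were not counted there. With 1 chip left out, its group's lone chip was assumed to vary like the others. The Rab median log2 difference then ranged from 0.04 to 0.06 with captopril, -0.04 to -0.02 with age and 0.06 to 0.07 in the last comparison. Leaving out a chip of the groups compared lowered the counts of Rab probe sets in both directions, and the chip's shares as well. Same-numbered chips share only a number (correlations of their deviations -0.030, 0.034 and -0.052), and with the replicate block the counts were 24 and 13, 19 and 29, and 26 and 18. The chip's shares with the block were 14.9% and 16.2%, 24.9% and 20.5%, and 21.3% and 16.7%. Quantile normalization turned 11 of the log2 differences named by rule that were called before or after it, and besides these Rab1a 1416082_at (0.20) and Rab6a 1448304_a_at (0.17) for Tg-18mo-ACEI against Tg-12mo. For age these were Rab7 1415734_at (0.14), Rab2a 1418622_at (0.068) and 1419945_s_at (0.11), and Rab6b 1434914_at (0.11). For Tg-18mo-ACEI against Tg-12mo they were Rab7 1415734_at (0.03), Rab2a 1418622_at (0.16) and 1419945_s_at (0.23), Rab3a 1422589_at (0.27), Rab6b 1434914_at (0.10), Rab3c 1435047_at (0.15) and Rab6a 1448305_at (0.12). Of 1594 values of the 107 named differences under the alternatives, 1344 kept their side of the threshold, and their direction where they were called. Those called in neither fit were counted among the 1344 whatever their direction. Another 219 kept the direction and were no longer called, and 20 became called. The cause of these shifts was not tested.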

Other observations

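Of the 27 Rab probe sets under the signal rule, 16 belonged to genes with another probe set above it, and 11 were the only probe sets of 8 genes: Rab17, Rab19, Rab20, Rab25, Rab37, Rab39, Rab44 and Rab5b. Their highest group mean was 91.6, on Rab37 1433947_at.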
